A study of Mus musculus with 8 samples.

Results

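The genes described here are 5 collagen chains (Col1a1, Col1a2, Col3a1, Col4a1 and Col4a2) and the related matrix glycoproteins Sparc and Sparcl1, which were chosen by symbol through their Ensembl identifiers and make up 7 of the 22430 genes in a table of raw read counts. The counts came from nanopore direct RNA sequencing, in which native poly(A) RNA molecules are read without copying, of brain hemispheres from 4 young adult mice (6m, 6 months old) and 4 aged mice (24m, 24 months old). All 8 animals were males of the C57Bl/6JRj strain, each gave 1 library, and neither age had a treatment or an engineered allele named in the labels. The comparison asks how the level of each transcript differed between the aged and the young adult brain. Each hemisphere was homogenised whole, so the libraries mixed the RNA of neurons, glia, vessels and meninges, and fewer cells of a type cannot be told apart from less RNA per cell.

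Fibrillar collagens are the rope-like proteins of connective tissue. Col1a1 and Col1a2 encode the chains of type I collagen, and Col3a1 encodes the chain of type III collagen, which is laid down beside it in vessel walls and meninges. Col4a1 and Col4a2 encode the chains that assemble into the type IV collagen network of basement membranes, the thin sheets under endothelial cells and around pericytes. In the brain nearly all of this collagen sits in the vessels and the meninges, made by endothelial cells, mural cells and fibroblasts, while the tissue between them is poor in it. Sparc (osteonectin) is a secreted calcium-binding glycoprotein that binds collagens and shapes matrix assembly. Sparcl1 (hevin) is its closest relative, secreted largely by astrocytes and known for its part in synapse formation.

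The 7 genes lie on 5 chromosomes of the GRCm39 mouse genome, in the GENCODE vM39 annotation, and all are protein-coding. Col1a1 (ENSMUSG00000001506) lies on chr11 from 94827050 to 94843868 on the plus strand and Col1a2 (ENSMUSG00000029661) on chr6 from 4504814 to 4541555 on the plus strand. Col3a1 (ENSMUSG00000026043) lies on chr1 from 45350698 to 45395840 on the plus strand. Sparc (ENSMUSG00000018593) lies on chr11 from 55285317 to 55314067 and Sparcl1 (ENSMUSG00000029309) on chr5 from 104226288 to 104262065, both on the minus strand. Col4a1 (ENSMUSG00000031502, chr8 from 11248423 to 11362826, minus strand) and Col4a2 (ENSMUSG00000031503, chr8 from 11362471 to 11499287, plus strand) stand head to head, and their annotated exons share 311 bases on opposite strands. The strand setting of the counting is not given in the sources used here, so reads within those bases cannot be told apart between the partners. The same holds for 578 exon bases of Sparcl1 that an antisense lncRNA, Gm26703, also covers, and for 1308 exon bases of Col1a2 covered by the antisense lncRNA Gm66266. None of the 7 genes had a near-identical copy among the annotated transcripts.

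The stretches of 250 bases before the annotated starts of Sparcl1 and Col1a1 are shown as examples that differ in level and in promoter composition. Whether level goes with composition was not tested. Capitals mark matches, on either strand, to TATAAA (the TATA box), CCAAT (the CCAAT box), GGGCGG (the GC box) or GGAGG (a purine-rich motif). Both stretches were read from GRCm39, from chr5:104262066-104262315 on the minus strand for Sparcl1 and from chr11:94826800-94827049 on the plus strand for Col1a1, and each is written along its gene's own strand.
Sparcl1: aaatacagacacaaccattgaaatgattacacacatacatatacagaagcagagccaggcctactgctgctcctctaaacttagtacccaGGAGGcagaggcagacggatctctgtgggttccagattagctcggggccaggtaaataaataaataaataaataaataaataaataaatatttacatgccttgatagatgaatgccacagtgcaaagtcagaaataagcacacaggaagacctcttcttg
Col1a1: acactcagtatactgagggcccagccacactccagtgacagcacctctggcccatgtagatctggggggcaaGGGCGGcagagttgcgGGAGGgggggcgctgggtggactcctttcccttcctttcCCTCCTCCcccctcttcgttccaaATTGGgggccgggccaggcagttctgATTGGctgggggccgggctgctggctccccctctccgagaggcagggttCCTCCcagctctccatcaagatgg
The Sparcl1 stretch has a GC content of 39.6% and holds 1 GGAGG match and none of the other motifs. The Col1a1 stretch has a GC content of 64.8% and holds 2 CCAAT matches, 1 GGGCGG match and 4 GGAGG matches. Among the same stretches of 21571 protein-coding genes, 36.5% hold CCAAT, 36.4% hold GGGCGG, 67.9% hold GGAGG and 11.9% hold TATAAA on either strand. The stretch before the canonical start of Sparc has a GC content of 54.0% and holds none of these motifs. It overlaps exons of other Sparc transcripts and is not printed. The stretch before Col3a1, the gene with the lowest level of those described here, has a GC content of 35.2%, below that of Sparcl1. It holds 1 TATAAA match and none of the other motifs. The GC content is 62.0% for Col1a2, 74.4% for Col4a1 and 65.6% for Col4a2.

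Depth set what could be measured. Total counts ran from 573152 to 843706 in the 6m libraries and from 660398 to 1255424 in the 24m libraries, and the means did not differ beyond the spread (768576 against 890592, n = 4 per age, p = 0.543 by a two-sided exact permutation test). A gene had to average more than 5 counts over the 8 libraries to be tested, and 9375 genes did. A count of 3, taken as the count limit, was worth 2.30 to 5.42 CPM (read counts scaled by the TMM-adjusted library size), depending on the library. Of the 7 genes, 4 were tested (Sparc, Sparcl1, Col1a2 and Col4a1). Col1a1, Col3a1 and Col4a2 stayed under the minimum and are given as counts with exact Poisson intervals, which cover counting error only.

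With age, Sparc stood higher and none of the other tested genes differed beyond the replicate spread. At the study's thresholds, an adjusted p of at most 0.05 together with an absolute log2FC of at least 0.58, 14.5% of the 9375 tested genes were called (10.3% higher and 4.17% lower at 24m), and 0 of the 4 tested here were, with edgeR, DESeq2 or limma-voom. At the adjusted p alone, 21.7% of tested genes passed (12.3% higher), and 1 of the 4 did, which was Sparc. The same gene was the 1 with an unadjusted p under 0.05. In TMM-scaled CPM, the 24m and 6m libraries did not overlap for 21.1% of tested genes and overlapped for all 4 tested here.

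**Figure D1:**
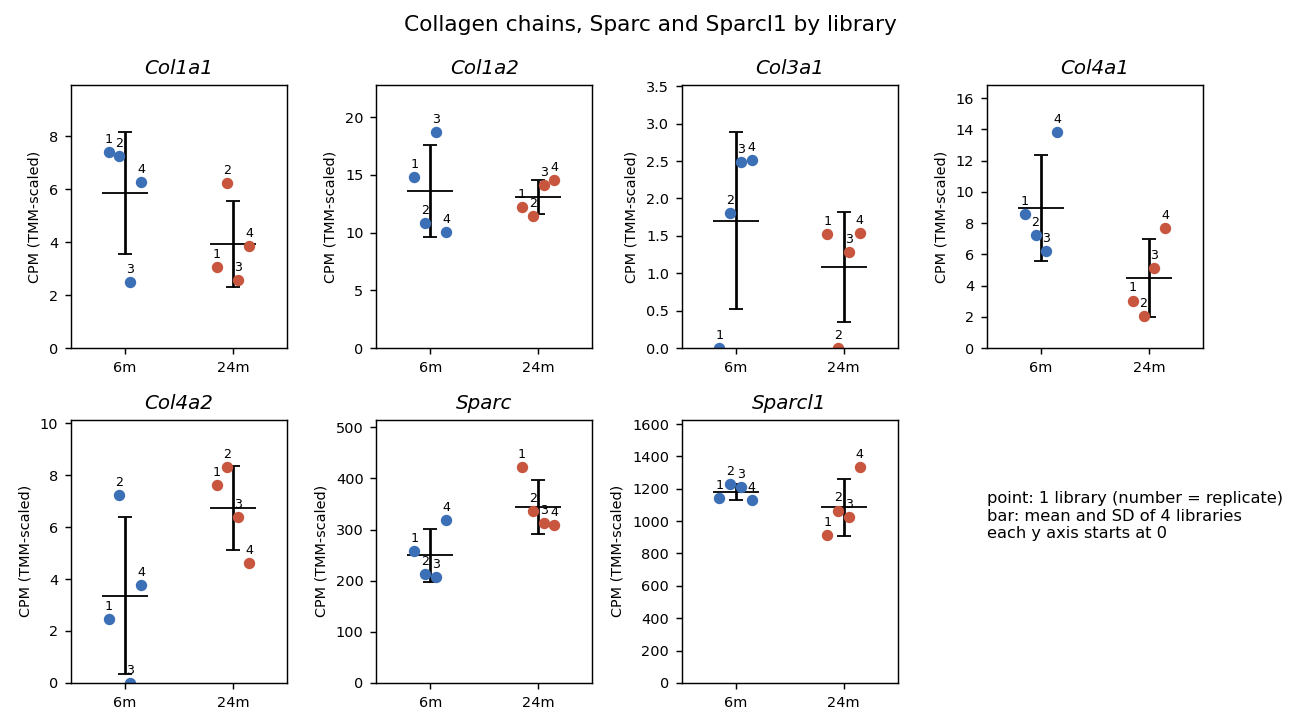
CPM after TMM scaling (y axis, from 0 in every panel) for the 7 genes in the 6m (blue) and 24m (red) libraries, with 1 point per library numbered by replicate and bars for the mean and SD of 4 libraries. In the Sparc panel the aged libraries lie between 308 and 422 CPM and only the fourth 6m library, at 319 CPM, reaches into their range.

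Sparc had 210, 118, 167 and 254 counts in the 6m libraries and 277, 323, 244 and 402 in the 24m libraries. On the CPM scale this was 258, 213, 208 and 319 at 6m against 422, 336, 312 and 308 at 24m. Of the aged libraries, 2 lay above every young adult library, and the other 2 lay below only the fourth 6m library. With library sizes alone the ages did not overlap (199 to 310 against 320 to 419 CPM), but that scaling moved the median log2FC of all genes to 0.10. The TMM-scaled mean level moved from 249.7 ± 51.5 CPM to 345 ± 53.1 CPM (SD, n = 4), a 1.37-fold difference with a 95% interval of 1.14 to 1.63. The log2FC was 0.45 with an SE of 0.126 (edgeR's quasi-likelihood test, adjusted p = 0.0122), which is past the adjusted p and under the fold minimum. Without the fourth 6m library the log2FC was 0.60 and Sparc passed both thresholds (adjusted p = 0.00236), and without the third 6m library it was 0.37 and passed neither (adjusted p = 0.0622).

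Sparcl1, the most abundant of the 7 transcripts, had 928, 680, 974 and 900 counts at 6m and 600, 1025, 803 and 1739 at 24m. After scaling the 6m libraries held 1142, 1229.6, 1212 and 1130.2 CPM and the 24m libraries 915, 1066, 1028 and 1334 CPM. The young adult libraries lay close together, whereas 3 aged libraries lay below all of them and the fourth lay above all of them. With library sizes alone, the second 24m library (1134 CPM) lay inside the young adult range (1099 to 1186 CPM). After TMM scaling the coefficient of variation was 4.21% at 6m and 16.4% at 24m. The means were 1179 ± 49.7 and 1085 ± 178 CPM (SD, n = 4), and the log2FC of −0.11 had a 95% interval of −0.31 to 0.09 (edgeR, adjusted p = 0.443). The fourth 24m library, which held the highest Sparcl1 level, was also the deepest of the 8, and its part in the result was not tested beyond leaving it out, which gave a log2FC of −0.21 (adjusted p = 0.0993).

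Sparc and Sparcl1 were also set against each other within each library, without a test. The ratio of Sparcl1 to Sparc counts was 4.42, 5.76, 5.83 and 3.54 in the 6m libraries and 2.17, 3.17, 3.29 and 4.33 in the 24m libraries. In means this was 4.89 ± 1.11 against 3.24 ± 0.883 (SD, n = 4), with the fourth library of each age lying inside the range of the other age. Across the 8 libraries, which share their depth and scaling between the genes, the log2 CPM of Sparc and Sparcl1 had a Pearson correlation of −0.69, and of −0.62 after the mean of each age was taken off. The first 24m library held both the highest Sparc level and the lowest Sparcl1 level.

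The type I collagen chains were detected in every library at low counts. Col1a2 had 12, 6, 15 and 8 counts at 6m and 8, 11, 11 and 19 at 24m. That corresponds to 14.8, 10.8, 18.7 and 10.05 CPM against 12.2, 11.4, 14.1 and 14.6 CPM, and all 4 aged libraries fell inside the young adult range. The means were 13.6 ± 3.97 and 13.1 ± 1.496 CPM (SD, n = 4), and the log2FC of −0.06 had a 95% interval of −0.72 to 0.59 (edgeR, adjusted p = 0.915). A difference within that interval, in either direction, is compatible with these counts.

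Col1a1 had 6, 4, 2 and 5 counts at 6m and 2, 6, 2 and 5 at 24m. The counts overlapped between the ages, and 1 young adult and 2 aged libraries were at or under the limit of 3 counts. Pooled over the libraries of each age, its level was 5.73 CPM (95% Poisson interval 3.34 to 9.18, 17 counts) at 6m and 4.05 CPM (2.27 to 6.68, 15 counts) at 24m. With a looser minimum of more than 5 counts in total, the fitted log2FC was −0.48 with an SE of 0.537 (edgeR, adjusted p = 0.626). The type I collagen protein needs more Col1a1 than Col1a2 chains, and the RNA counts, a different measure, ran the other way, also per kb of transcript. Pooled, there were 41 Col1a2 counts for 17 of Col1a1 at 6m and 49 for 15 at 24m, and Col1a2 was ahead in every library. The Col1a2 counts may include reads of the antisense lncRNA Gm66266 over 1308 shared exon bases, and its part was not tested.

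Col3a1 was at the count limit throughout. It had 0, 1, 2 and 2 counts in the 6m libraries and 1, 0, 1 and 2 in the 24m libraries, so all 8 libraries were at or under 3 counts and no fold is given. The pooled level was 1.69 CPM (95% Poisson interval 0.547 to 3.93) at 6m and 1.08 CPM (0.294 to 2.77) at 24m.

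The basement membrane pair was also thinly covered, and neither chain reached the mean count of Col1a2. Col4a1 had 7, 4, 5 and 11 counts at 6m and 2, 2, 4 and 10 at 24m. Its CPM were 8.62, 7.23, 6.22 and 13.8 against 3.05, 2.08, 5.12 and 7.67, so 3 of the 4 aged libraries lay below all young adult libraries and the fourth lay among them. The means were 8.97 ± 3.37 and 4.48 ± 2.48 CPM (SD, n = 4), and the log2FC was −0.90 with a 95% interval of −1.82 to 0.02, past the fold minimum in size and short of the adjusted p (edgeR's quasi-likelihood test, adjusted p = 0.156, unadjusted 0.0549). At 24m, 2 libraries were at or under the limit of 3 counts and the mean count was under the minimum, so Col4a1 was tested through its 6m libraries and its log2FC is no support for a lower level.

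Col4a2, the partner chain, had 2, 4, 0 and 3 counts at 6m and 5, 8, 5 and 6 at 24m. Every aged library held more counts than every young adult library, but after scaling the second 6m library, at 7.23 CPM, lay among the 24m libraries at 7.62, 8.32, 6.40 and 4.602 CPM. At 6m, 3 libraries were at or under the limit of 3 counts and at 24m none was. Pooled, the level was 3.04 CPM (95% Poisson interval 1.39 to 5.76, 9 counts) at 6m and 6.48 CPM (4.15 to 9.64, 24 counts) at 24m. Under the looser minimum the log2FC was 1.08 with an SE of 0.587 (edgeR, adjusted p = 0.240).

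Because both chains enter the same protein, their shares are of interest although they rest on few reads. Col4a2 made up 22.2%, 50%, 0% and 21.4% of the Col4a1 and Col4a2 counts in the 6m libraries and 71.4%, 80.0%, 55.6% and 37.5% in the 24m libraries. Pooled, it was 9 of 36 counts (25%) against 24 of 42 (57.1%). The second 6m library lay inside the aged range and the fourth 24m library inside the young adult range, and no test was run on this share, which was looked at after the counts were seen.

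Summed over the 5 collagen chains, the libraries held 27, 19, 24 and 29 counts at 6m and 18, 27, 23 and 42 at 24m. On the CPM scale the sum was 33.5 ± 2.74 against 29.3 ± 2.12 (SD, n = 4), with overlapping ranges, since the highest aged library (32.2) lay above the lowest young adult library (29.9).

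**Figure D2:**
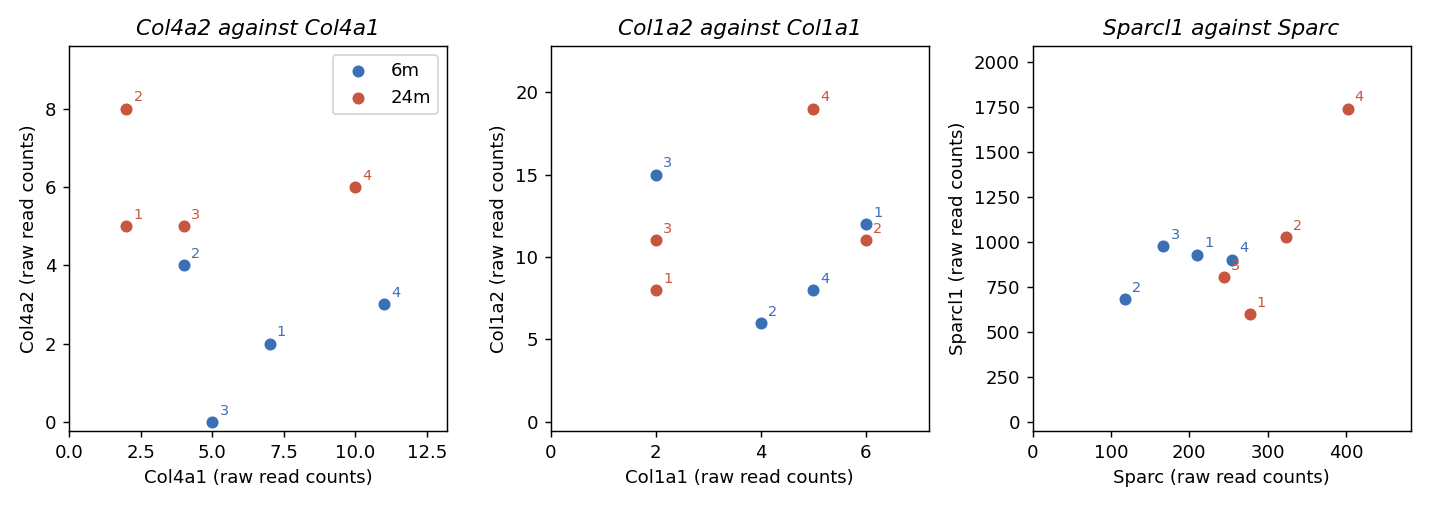
Raw counts of Col4a2 against Col4a1, Col1a2 against Col1a1 and Sparcl1 against Sparc, with 1 point per library (6m blue, 24m red) numbered by replicate and both axes in read counts. In the left panel the 24m libraries hold 5 to 8 Col4a2 counts and the 6m libraries 0 to 4.

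Levels of different genes were compared per kilobase of the canonical transcript. Direct RNA reads start at the poly(A) tail and each molecule gives a single read, so counts need not grow with length, and the order by CPM without length was the same. At 6m the mean levels per kb were 301 ± 12.7 CPM for Sparcl1, 108 ± 22.3 for Sparc and 2.53 ± 0.741 for Col1a2 (SD, n = 4). Below them came Col4a1 (1.36), Col1a1 (0.986), Col4a2 (0.499) and Col3a1 (0.306 CPM per kb), and each of these overlapped its neighbour in the order, as did Col1a2 and Col4a1. At 24m Sparcl1 (277), Sparc (149) and Col1a2 (2.44) kept the top places without overlap, followed by Col4a2 (0.998), Col4a1 (0.677), Col1a1 (0.661) and Col3a1 (0.195 CPM per kb). The ranges of Col4a2 and Col4a1, and of Col4a1 and Col1a1, overlapped there. Among the tested protein-coding genes, ordered by mean level per kb over all 8 libraries, Sparcl1 stood at place 371, Sparc at 724 and Col1a2 at 7844.

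**Figure D3:**
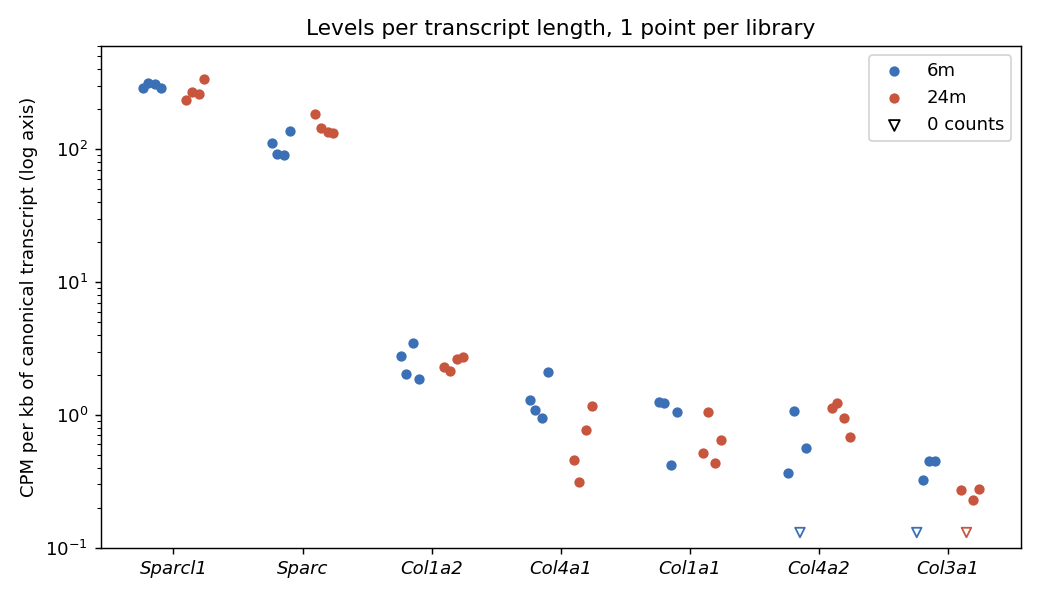
CPM per kb of the canonical transcript on a log axis for the 7 genes, ordered by their mean over all libraries, with 1 point per library (6m blue, 24m red) and open triangles for libraries at 0 counts. Sparcl1 and Sparc lie between 90.0 and 341 CPM per kb, and the collagens lie between 0 and 3.48.

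The other collagens were mostly too rare to test. Of 39 further chains in the table, 24 were at or under 3 counts in every library, Col28a1 had no count, and 6 were tested. Col20a1, a collagen that associates with fibrils, was called lower, from 12.8 ± 2.64 to 5.70 ± 1.59 CPM (SD, n = 4, log2FC −1.13, edgeR, adjusted p = 0.0336), with no overlap between the ages, and lost the call in 10 of 17 alternative settings, DESeq2 among them. The median log2FC of the 6 was −0.30, beside −0.00337 over all tested genes. Col6a1, a chain of the beaded microfibrils around vessels, had a log2FC of −1.07 (adjusted p = 0.100), and Col18a1, which makes the precursor of endostatin in vascular basement membranes, had one of 0.72 (adjusted p = 0.316) and shares 896 exon bases with the antisense gene Slc19a1.

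Laminins and the other basement membrane proteins gave 1 call among 6 tested of 16 genes, with a median log2FC of −0.32. Lama2, a laminin chain of vessel basement membranes, fell from 11.9 ± 5.53 to 5.58 ± 1.18 CPM (SD, n = 4, log2FC −1.11, edgeR, adjusted p = 0.0498). Its libraries overlapped between the ages, it lost the call in 15 of 17 alternative settings, and 1282 of its exon bases are shared with an antisense lncRNA.

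Genes for the folding, modification and processing of collagen, such as prolyl and lysyl hydroxylases and procollagen proteases, gave 1 call among 15 tested of 29 genes, with a median log2FC of −0.20. Mia3, which helps to load bulky procollagen into transport carriers at the endoplasmic reticulum, fell from 53.8 ± 11.8 to 32.7 ± 8.91 CPM (SD, n = 4, log2FC −0.69, edgeR, adjusted p = 0.0170), without overlap. It shares 4405 exon bases with the antisense gene Aida, and kept the call in 13 of 18 alternative settings. Serpinh1, the chaperone specific to procollagen, had a log2FC of −0.16 (adjusted p = 0.728) and Ppib, a prolyl isomerase of collagen folding, one of −0.20 (adjusted p = 0.239).

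Of 15 other Sparc family and matricellular genes, 8 were tested, 4 were called higher and none lower, and the median log2FC was 0.60. The testicans Spock1 and Spock2, brain proteoglycans with a Sparc-like calcium-binding module, were called higher, as was Smoc1, a secreted Sparc relative. Spock1 stood at 29.5, 34.4, 57.3 and 28.9 CPM at 6m and 74.7, 84.2, 92.1 and 60.6 CPM at 24m (log2FC 1.03, SE 0.201, edgeR, adjusted p = 0.000732). Spock2 stood at 7.39, 5.42, 3.73 and 8.79 CPM against 13.7, 29.1, 25.6 and 19.9 CPM (log2FC 1.78, SE 0.357, adjusted p = 0.000947). For both, every aged library lay above every young adult library.

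Smoc1 had 2, 2, 4 and 3 counts at 6m and 9, 7, 11 and 18 at 24m (log2FC 1.67, SE 0.430, edgeR, adjusted p = 0.00697), again without overlap. The fourth call, Spock3, is named after its value was seen and had a log2FC of 0.95 with overlapping libraries (adjusted p = 0.0391). Spock1, Spock2 and Smoc1 kept their calls in all alternative settings in which they were tested (18, 18 and 17). The mean count of Spock2 (6, 3, 3 and 7 counts) and of Smoc1 was under the minimum at 6m, with libraries at or under the limit of 3. Both were thus tested through their aged libraries, and their calls over the settings are no support for a higher level. Neither the count of 4 nor the median is support for a change of the group.

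**Figure D4:**
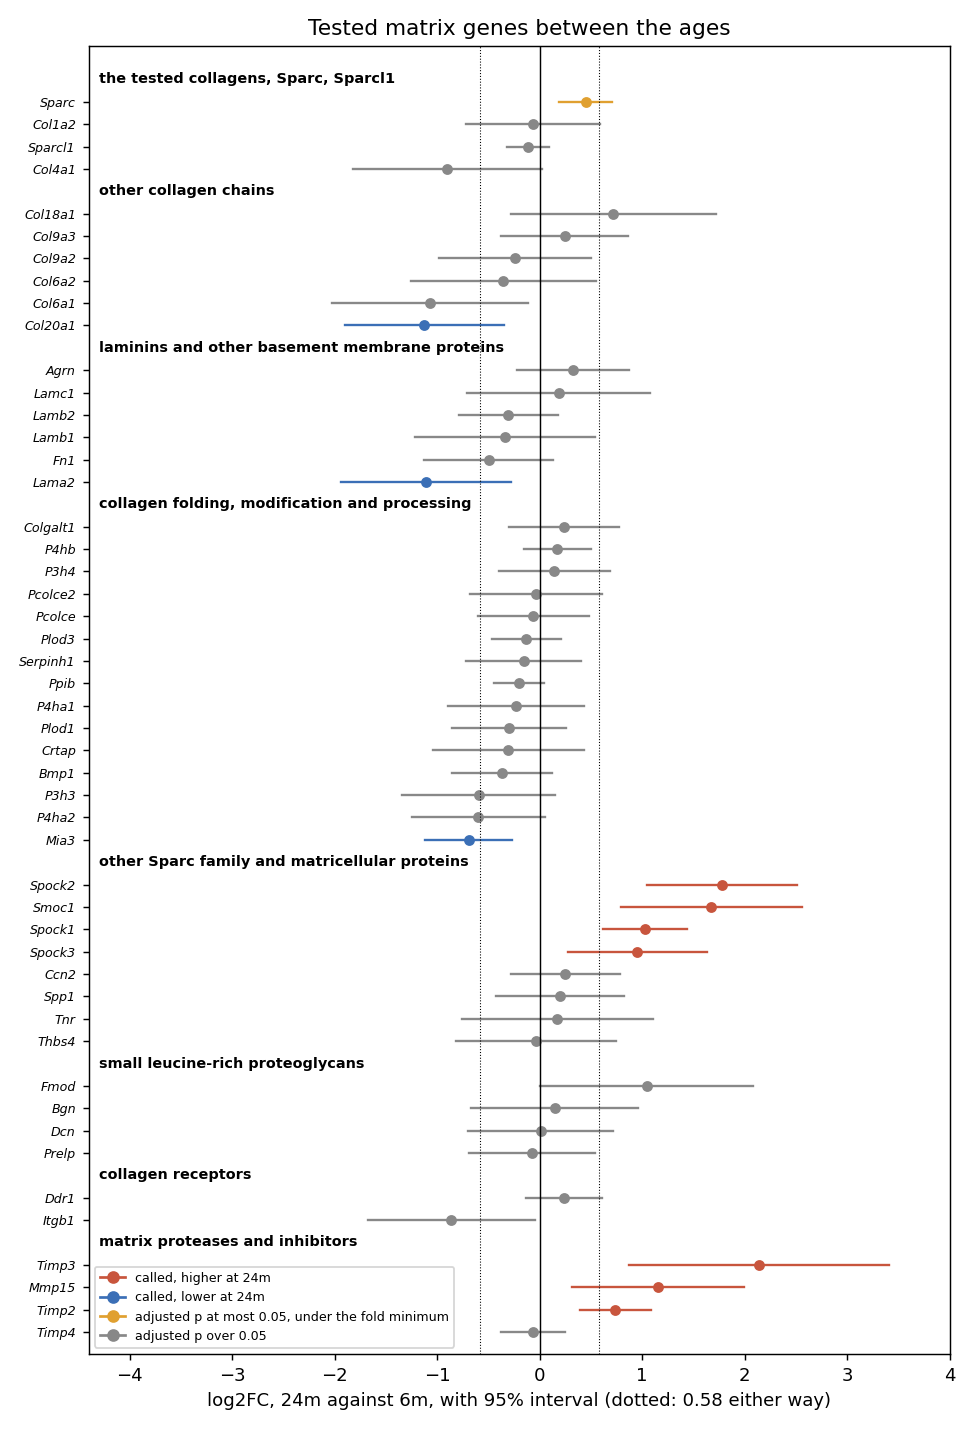
log2FC between the ages (x axis, 24m against 6m, positive when higher at 24m) with 95% intervals for the tested genes of each matrix list, coloured by call, with dotted lines at an absolute log2FC of 0.58. Sparc, at 0.45, is the only tested gene of the 7 coloured as past the adjusted p, and the 4 called genes of its wider family lie between 0.95 and 1.78. The Timp3 value rests on 6m libraries at the count limit, and those of Spock2 and Smoc1 do so in part.

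Among the matrix proteases and their inhibitors, 3 of 4 tested genes (of 13 in the table) were called higher, and 1 of 4 was with DESeq2 or limma-voom. The 6m mean counts of Mmp15 and Timp3 were under the minimum, so both were tested through their aged libraries, and the count of 3 is no support for a change of the group. Without single libraries the count ran from 1 (without the first 6m or the third 24m library) to 3. Timp2, an inhibitor of matrix metalloproteinases, rose from 55.7 ± 8.81 to 92.5 ± 18.4 CPM (SD, n = 4, log2FC 0.74, edgeR, adjusted p = 0.00290), without overlap and in all 18 alternative settings, although it shares 332 exon bases with Cep295nl on the same strand. Mmp15, a membrane-type metalloproteinase, had 3, 1, 6 and 7 counts at 6m and 10, 13, 11 and 13 at 24m (log2FC 1.15, adjusted p = 0.0434), and lost the call in 10 of 17 settings. Timp3, an inhibitor bound to the matrix, had 0, 2, 3 and 1 counts at 6m, all at or under the limit, against 2, 5, 8 and 21 at 24m, and its exons share 1734 bases with the antisense gene Syn3, so no fold is given.

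The small leucine-rich proteoglycans, which coat collagen fibrils, and the collagen receptors gave no call with edgeR, DESeq2 or limma-voom, with 1 gene of each list at an unadjusted p under 0.05 in edgeR. Of 10 proteoglycans 4 were tested, with a median log2FC of 0.08, and Prelp (−0.07) and Dcn (0.01) were the most abundant. Of 9 receptors 2 were tested. Ddr1, a receptor tyrosine kinase activated by collagen, had a log2FC of 0.24 (edgeR, adjusted p = 0.367), and Itgb1, the shared beta chain of the collagen-binding integrins, had one of −0.86 (adjusted p = 0.123) and was called in 1 of 18 alternative settings.

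The markers of the vessel and meningeal cells named above as makers of collagen moved as follows. Those of astrocytes, named above as a main source of Sparcl1, and of the other cell types are given under the other observations. Of 16 endothelial markers 8 were tested and 2 were called lower, Esam (log2FC −1.04, edgeR, adjusted p = 0.0495) and Egfl7 (−0.58, adjusted p = 0.0258), with a median log2FC of −0.48 over the 8. After TMM scaling, the summed endothelial level was 306 to 377 CPM in the 6m libraries and 259 to 293 CPM in the 24m libraries, without overlap. With library sizes alone the sums of the ages overlapped. No endothelial marker was then called, and their median log2FC was −0.38. No endothelial marker was at 0 across the libraries of either age. Esam and Egfl7 lost their calls in 15 of 17 and 13 of 18 alternative settings. Egfl7 shares 1088 exon bases with the antisense gene Agpat2 and 264 with Gm20532 on the same strand.

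Pericyte and smooth muscle markers gave no call among 5 tested of 14 (edgeR, DESeq2 and limma-voom, with 2 at an unadjusted p under 0.05 in edgeR), and their sum was 168 to 265 CPM at 6m and 152 to 186 CPM at 24m. Vtn, an abundant pericyte transcript, had a log2FC of −0.40 (adjusted p = 0.0636) and Acta2, smooth muscle actin, one of −0.76 (adjusted p = 0.106), and Abcc9 was at 0 in the 6m libraries. Fibroblast and meningeal markers, which include Dcn, also gave no call among 6 tested of 14 by any of the 3 tools (1 at an unadjusted p under 0.05), with sums of 221 to 266 CPM and 175 to 233 CPM and Igf2 at 0 in the 24m libraries. Igfbp2 had a log2FC of −0.36 (adjusted p = 0.0703) and Slc6a13, a meningeal transporter, one of 0.16 (adjusted p = 0.779). The part of these cell types in the levels of Sparc and the collagens was not tested.

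**Figure D5:**
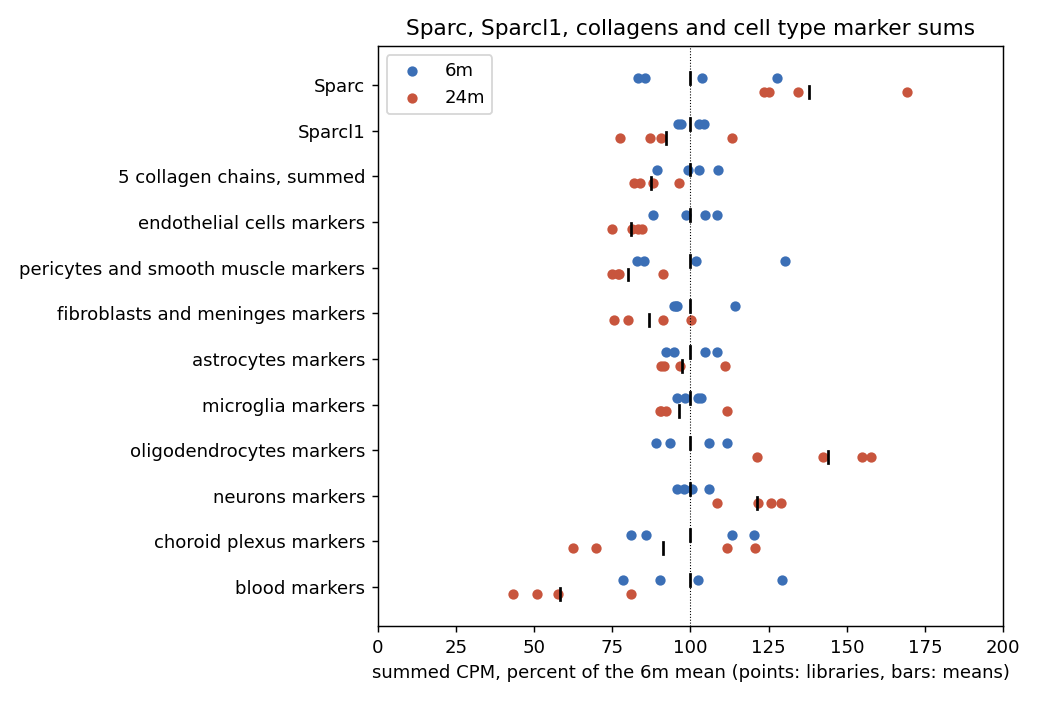
Sparc, Sparcl1, the summed 5 collagen chains and the summed markers of each cell type, as percent of their own 6m mean (x axis), with 1 point per library (6m blue, 24m red) and black bars for the means. On this TMM-scaled axis the endothelial sums of the ages do not overlap and lie lower at 24m. Of the 24m Sparc points, 2 lie to the right of every 6m point and the rest lie to the right of all but 1.

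The genes whose log2 CPM followed each tested gene most closely over the 8 libraries were taken from 5147 tested genes with a mean count over 20, as a description. For Sparc these were Arfgap2 (Pearson r = 0.986), Dhodh (0.985) and H2ax (0.961). For Sparcl1 they were Elavl3 (0.953), Rufy3 (0.951) and Khdrbs3 (0.940), and for Col1a2 they were Tagap (0.959), Mrpl55 (0.877) and Trappc11 (0.876). For Col4a1 they were Nefh (0.990), Nsun2 (0.985) and Hspe1 (0.973). The highest of 5147 correlations over 8 libraries are large partly by selection, and none was tested. The 8 points share library depth and scaling, and the low counts of the collagens enter these values.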

How the data were processed

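Gene-level read counts were made by the authors, who read RNA of 8 brain hemispheres directly on a MinION. Reads were aligned to the GRCm39 genome by minimap2 (version 2.24 per the submitters' notes), and featureCounts assigned them to genes. Deposited values are these raw counts, without normalization, and counting settings for strand, overlap and multi-mapping are not given in the sources used here. The labels name another library kit, and the methods were followed. All 8 columns of values were mapped to a sample by their labels, and each library came from a separate mouse.

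Of 22430 genes, 22281 were matched by identifier to GENCODE vM39 and 5754 had no count. Counts were tested with edgeR 4.0.16 in R 4.3.3 (quasi-likelihood test, TMM, age as the only term, mean count over 5, Benjamini-Hochberg adjustment over 9375 genes, calls where the adjusted p did not exceed 0.05 and the absolute log2FC reached 0.58). Standard errors were derived from the F statistic. CPM use TMM-scaled library sizes. DESeq2 1.42.0, limma 3.58.1 (voom, quantile normalization), other scalings, filters, a replicate block and leaving out each library were alternatives, and the scripts were tested on simulated data. Copies were searched with BLAST+ 2.17.0 (identity of at least 95% over at least 50% of the transcript). Sequences and motifs were read from the GRCm39 genome.

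The members and gene lists were chosen with earlier results of these data known. Named genes were all 7 members, up to 3 called genes per list and direction by size of log2FC, the 2 most abundant tested genes of a list without calls, and the 3 closest genes in log2 CPM for each tested member. Col6a1, Col18a1, Serpinh1, Ppib, Spock3 and Tubb3 were named beyond this rule, after their values were seen. A called gene of the marker lists is not reported here.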

Additional observations from a re-analysis of the deposited data

Results flagged for a closer look

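In the 6m libraries, the total count of the second, 573152, stood apart below the other 3, which held 818963 to 843706. In the 24m libraries, the Col3a1 level of the second was 0 CPM, apart from the other 3, which held 1 or 2 counts each, a gap that comes down to a single read. Each was flagged because its gap to the nearest library, divided by the range of the group, was above 0.829, Dixon's 95% value for 4 samples. Of 18 groups of 4 examined, 2 passed, and chance flags about 1 in 20.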

How the results depend on the processing

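The log2FC of Sparc was positive in all 18 alternative settings in which it was tested (0.35 to 0.60) and had an adjusted p of at most 0.05 in 17 of them. The log2FC of Col4a1 stayed between −1.20 and −0.64 in the 15 settings that tested it, with an adjusted p above 0.05 in each. It fell under the count minimum in the other settings and passed it elsewhere through its 6m libraries, so this range is no support for a lower level. The small log2FC of Sparcl1 turned to 0.11 with limma-voom and quantile normalization, and that of Col1a2 turned to 0.043 with library sizes alone, to 0.14 without the third 6m library and to 0.01 without the second 24m library (−0.19 to 0.14 when each library was left out). The cause was not tested. The number of the 7 genes called was 1 at the adjusted p alone, 0 to 1 when each library was left out in turn, and 0 in the other settings. Over all genes, the calls numbered 1359, against 834 with DESeq2 (cause not tested) and 989 to 1594 when each library was left out. Of the calls, 71.2% were higher at 24m, against 84.5% with library sizes alone, which moved the median log2FC of all genes to 0.10, and 59.2% with limma-voom. With the replicate block 1308 genes and 0 of the 7 were called, and Sparc had a log2FC of 0.46 (edgeR, adjusted p = 0.00229). The labels name no link between same-numbered libraries beyond the number. Their deviations from the age means correlated at 0.0647, −0.0101, 0.00510 and −0.160, which cannot decide whether they were prepared or run together. Depth limits the collagens, because 3 of the 5 chains did not reach the count minimum.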

Other observations

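The marker lists of the other cell types are given by their counts and summed levels, without a test of any list. Of 10 oligodendrocyte markers, all tested, 2 were called higher, among them Mbp (log2FC 0.72, edgeR, adjusted p = 0.000250), and the summed level went from 2414 ± 257 to 3479 ± 399.9 CPM (SD, n = 4) without overlap. Of 10 neuronal markers, 3 were called higher (Snap25, Gad1 and Slc17a7), with a count of 2 to 5 over the alternative settings that keep both thresholds and Snap25 not called by DESeq2 (adjusted p = 0.111). Tubb3 was lower past the adjusted p alone (log2FC −0.30, edgeR, adjusted p = 0.0353). Of 12 astrocyte markers 11 were tested, 3 were called higher (Gfap, Slc1a3 and Gja1) and 1 lower (Slc1a2), with a summed level of 3575 ± 278 against 3483 ± 342 CPM. Slc1a2 kept its call in 10 of 18 alternative settings and was not called by DESeq2 (adjusted p = 0.0715). At the adjusted p alone, 4 astrocyte markers were higher and 3 lower. Of 12 microglial markers 10 were tested and 1 was called higher (Tmem119, not called by DESeq2, adjusted p = 0.0609). Of those 10, 7 had a positive log2FC, 3 were higher at the adjusted p alone and none lower, and the median log2FC was 0.35. Their summed level did not follow this median, at 6191 ± 223 against 5956 ± 646 CPM. Choroid plexus markers gave no call among 4 tested of 9 with edgeR, DESeq2 or limma-voom, with 2 at an unadjusted p under 0.05 in edgeR, Enpp2 among them (log2FC −0.46, adjusted p = 0.00550), and Ttr at −0.11 (adjusted p = 0.687).

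All 5 blood markers were called lower with edgeR, 4 with DESeq2 and 3 with limma-voom or without the third 6m library, and Alas2 kept its call in 9 of 18 alternative settings. Their summed level went from 7766 ± 1689 to 4517 ± 1264 CPM (SD, n = 4). The globin pairs Hba-a1 with Hba-a2 and Hbb-bs with Hbb-bt are near-identical copies, so the split of reads within each pair is uncertain. The part of blood content in the levels of vascular and matrix genes was not tested.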
